A study of Penicillium oxalicum with 6 samples.

Results

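The 209 genes described here carry the highest ID numbers of the Penicillium oxalicum annotation used by the authors, POX09626 to POX09834, and make up 209 of the 9834 gene IDs in each deposited table. They were chosen by ID number, and the range was picked from measured values: in an earlier look at the same data, genes with high numbers had risen in MuPOX06509 relative to Ku70 more often than other genes. The difference between the strains is therefore given for these genes as a description, without a test, and no support is drawn from it. The genes numbered up to 9400 (9400 of them) serve as the comparison, and the 225 genes from POX09401 to POX09625 lie between.

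Mycelium was grown for 24 h with 1% Avicel, a purified crystalline cellulose, as the carbon source, and the labels put the mycelium at 1 g in each case. The strain is MuPOX06509, a mutant of the gene POX06509, in 3 libraries, and Ku70, a mutant of a gene for non-homologous end joining, in the other 3. Within each strain the titles tell the libraries apart by the letters F, S and T. The labels give neither the parent of MuPOX06509 nor the number of clones, and the growth protocol names only MuKu70 for every library. Loss of POX06509 and any other difference between the strains cannot be told apart, and whether libraries of a strain came from separate cultures is not given. The study asks which regulators act on the genes for cellulases and xylanases.

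Penicillium oxalicum is a soil mould that secretes cellulases and xylanases, the enzymes that break down plant cell walls, and it makes them mainly when cellulose or a similar inducer is present and glucose is scarce. Gene numbers of a fungal genome are often given contig by contig, so that neighbouring numbers can be neighbouring genes and the last numbers can fall on short or late-placed contigs. The sources used here do not say whether this holds for the POX numbers. Genes in repeats and gene families share sequence with other genes, and a short read from them can fit more than 1 place. A program that estimates expression then divides such reads between the places, which gives counts that are not whole numbers.

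The files name no genes, and none of the 9834 IDs equals a tag, symbol or synonym among the 9964 genes of the reference table for strain HP7-1 (assembly ASM172317v3). The genes are therefore called by their IDs, no function is given for any of them, and no sequence is shown. The strain labels were checked on POX06509 itself, which had 0, 0 and 1 counts in the MuPOX06509 libraries, against 1405, 2580 and 1851 in the Ku70 libraries, each in the order F, S, T. Total expected counts were 14605326 to 15219424 per library. Replicate libraries differed by more than sampling noise, with a chi-square over degrees of freedom of 14.5 to 77.0 between libraries of a strain. A count of 0 allows a true level of up to 3 counts, which is 0.197 to 0.205 CPM (counts scaled to library size), by counting error only.

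On the FPKM scale, which sets the fragments of a gene against its length and the depth of the library, the members' median was low. It was 12.7, 8.79 and 7.44 FPKM in MuPOX06509 F, S and T, against 6.79, 6.75 and 8.19 FPKM in Ku70 F, S and T. MuPOX06509 library F was the highest of the 6, and the range of the MuPOX06509 libraries overlapped that of the Ku70 libraries, since T lay below Ku70 library T. The median over genes numbered up to 9400 was 18.9 ± 0.625 FPKM in MuPOX06509 and 18.8 ± 1.04 FPKM in Ku70 (SD, n = 3 each). The same means for the members were 9.65 ± 2.74 FPKM in MuPOX06509 and 7.24 ± 0.820 FPKM in Ku70 (SD, n = 3 each). The middle 50% of the members ran from 1.72 to 32.9 FPKM in MuPOX06509 and from 0.760 to 35.4 FPKM in Ku70, as means over the libraries of a strain.

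Together the members held 1.56%, 1.41% and 1.37% of all counts in MuPOX06509 F, S and T, against 1.41%, 1.43% and 1.56% in Ku70 F, S and T. The strains overlapped in this share. A few genes carried much of it: POX09637, POX09667 and POX09666 took 30.7% to 34.7% of the members' counts in MuPOX06509 libraries and 27.1% to 28.4% in Ku70 libraries.

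The members with no count at all were few. In single libraries 16, 19 and 16 of the 209 had no count in MuPOX06509 F, S and T, against 16, 24 and 22 in Ku70 F, S and T. As shares these were 8.13% ± 0.829 in MuPOX06509 and 9.89% ± 1.99 in Ku70 (SD, n = 3 each), where genes numbered up to 9400 gave 5.0% ± 0.752 in MuPOX06509 and 5.28% ± 0.207 in Ku70. Only 8 members (3.83%) had no count in any of the 6 libraries, against 162 (1.72%) of the genes numbered up to 9400. With the bar set at 10 counts summed over the libraries, 27 members (12.9%) were below it, against 680 (7.23%) of the comparison genes. An FPKM under 1 in every library was found for 33 members (15.8%) and for 1092 comparison genes (11.6%). The genes from POX09401 to POX09625 were near the members in both, with 26 (11.6%) under 10 counts and 32 (14.2%) under 1 FPKM throughout. The last numbers were the emptiest: of the 59 members from POX09776 on, 15 (25.4%) had under 10 counts in all, and of the 50 members from POX09626 to POX09675, 3 (6.0%).

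Fractional expected counts were found for 32 of the 209 members (15.3%) in at least 1 library, where a count more than 0.005 from a whole number was called fractional. The share among genes numbered up to 9400 was 399 of 9400 (4.24%), and among those from POX09401 to POX09625 it was 26 of 225 (11.6%). In single libraries 23, 20 and 19 members had a fractional count in MuPOX06509 F, S and T, against 24, 21 and 17 in Ku70 F, S and T, so the strains overlapped. Of the 32, 11 were fractional in all 6 libraries and 6 in a single library. Among the 182 members with at least 10 counts in all, 28 (15.4%) were fractional. The share differed along the numbers, with 2 of 50 members in POX09626 to POX09675, 6 of 50 in POX09676 to POX09725, 10 of 50 in POX09726 to POX09775 and 14 of 59 from POX09776 on. How far reads were moved between these genes and others was not tested.

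The 3 most abundant of the fractional members were POX09744, POX09734 and POX09829. POX09744 was fractional in all 6 libraries, with 818.11, 626.27 and 662.25 counts in MuPOX06509 F, S and T, compared with 953.5, 770.29 and 1045.99 counts in Ku70 F, S and T, and its groups overlapped. POX09734 and POX09829 were fractional in 1 library each, Ku70 S, with 1452.91 and 100.98 counts there.

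**Figure D1:**
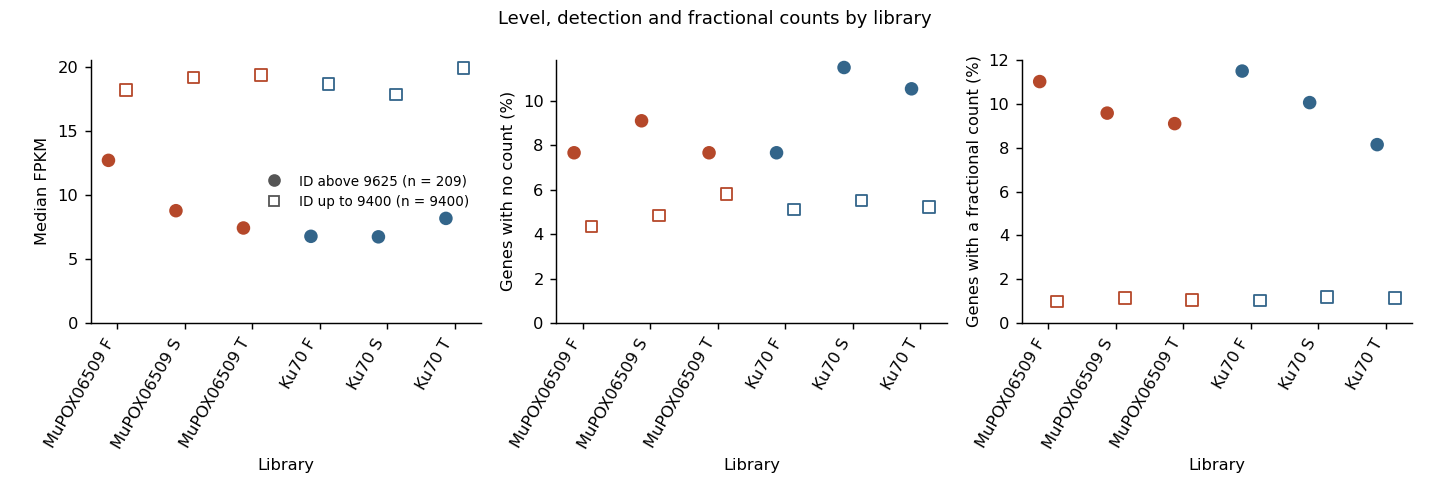
Median FPKM, genes with no count (percent) and genes with a fractional expected count (percent) in each of the 6 libraries, MuPOX06509 in red and Ku70 in blue, for the 209 members (filled circles) and the 9400 comparison genes (open squares). In each library the members had the lower median FPKM and the higher shares of the other 2 measures.

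A length for each gene was taken from the ratio of count to FPKM. It could be had for 176 of 209 members (84.2%), those that reached 1 FPKM in at least 1 library. Their median was 680.5 bases, with the middle 50% from 369 to 1483 bases, against 1234 bases and 721 to 1886 bases for 8308 genes numbered up to 9400. The sources used here do not say whether the FPKM used full or shortened lengths, and a shortened length would make short genes look shorter still. The members from POX09626 to POX09675 had a median of 1290 bases, and those from POX09776 on a median of 402.5 bases. Among tested members the shortest were POX09827 at 72 bases, POX09811 at 100 bases and POX09669 at 197 bases, and the longest POX09701 at 9981 bases, POX09635 at 5584 bases and POX09776 at 4600 bases. For POX09827 and POX09811 a single read is worth several times the FPKM that it is in a gene of median length.

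**Figure D2:**
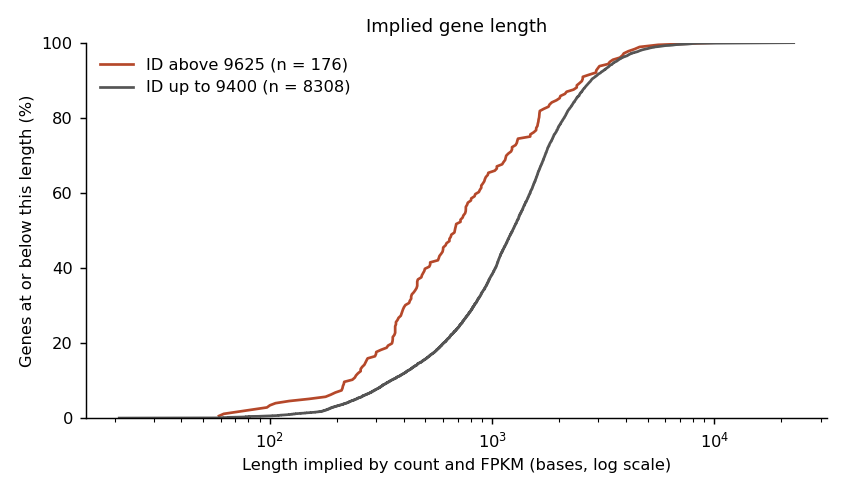
Cumulative share of genes (percent) by the length implied by count and FPKM, in bases on a log scale, for 176 members and 8308 genes numbered up to 9400. The curve of the members lies to the left, with medians of 680.5 and 1234 bases.

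The members were not all low. In every library 22 of them (10.5%) reached 100 FPKM, against 12.4% of the genes numbered up to 9400, and 10 of the 22 lay in POX09626 to POX09675. The most abundant was POX09637, with 5166, 3906 and 4300.1 FPKM in MuPOX06509 F, S and T, against 4815, 4218 and 4417 FPKM in Ku70 F, S and T. Its strains overlapped, and the log2 fold change, MuPOX06509 over Ku70 as throughout, was 0.03 ± 0.18 (SE).

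The 5 consecutive IDs from POX09663 to POX09667 were all above 300 FPKM in each library. This run was singled out after its values were seen. POX09667 had 4233, 3436 and 3532 FPKM in MuPOX06509 F, S and T, against 2708, 2743 and 3380.0 FPKM in Ku70 F, S and T. POX09666 had 3733, 3195 and 3052 FPKM in MuPOX06509 F, S and T, against 2108, 2433 and 2707 FPKM in Ku70 F, S and T. In both genes each MuPOX06509 library lay above each Ku70 library, but neither was called changed, with log2 fold changes of 0.38 ± 0.17 (SE) and 0.50 ± 0.17 (SE). DESeq2 called POX09666 higher, also at 0.50. The values of POX09663, POX09664 and POX09665 overlapped between the strains. POX09677, the last of the 5 most abundant members, had 1690.1, 1058 and 905 FPKM in MuPOX06509 F, S and T, against 1016, 1154 and 1251 FPKM in Ku70 F, S and T, also with overlap. None of the 22 abundant members was called higher, 2 were called lower, and their log2 fold changes ran from -1.27 to 0.50. Over all tested genes 5.33% rose and 7.27% fell. The 22 had to reach 100 FPKM in Ku70 too. The 3 members that rose to a mean of at least 100 FPKM in MuPOX06509 were below that in Ku70, and so were left out.

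The change between the strains was taken from edgeR's quasi-likelihood test over all genes, with a call at a Benjamini-Hochberg adjusted p under 0.05. Of the 209 members 149 passed the filter on low counts and were tested, and 60 were not. The libraries of 1 strain were enough to pass it. POX09721, POX09723, POX09724 and POX09811, which are counted among the rises, had fewer than 10 counts in each Ku70 library. They entered the test only through MuPOX06509, where they were high. Among the tested members 28 rose (18.8%) and 9 fell (6.04%). Over all 8336 tested genes 5.33% rose, 7.27% fell and 12.6% were called in either direction. The share that rose among the 8018 tested genes numbered up to 9400 was 4.50%, and the share that fell 7.42%. Of the 169 tested genes from POX09401 to POX09625, 55 rose and 2 fell. Leaving out Ku70 S gave 17 falls and 41 rises, leaving out Ku70 T gave 4 falls, and leaving out MuPOX06509 S, MuPOX06509 T or Ku70 F gave 5 falls. The genes numbered up to 9400 moved in the same fits, to 11.6% that rose and 13.6% that fell without Ku70 S, and to 3.33% that fell without Ku70 T. As the range of numbers was picked on this contrast, nothing is read from these shares. In bulk RNA a change of level and a change in the part of the mycelium that expresses a gene cannot be told apart.

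The rises among the members had a median of 4.03-fold and the falls a median of 1.96-fold. At least 2-fold changes were found for 27 that rose, where 3.57% of all tested genes rose by that much, and for 4 that fell, where 3.43% did. The median log2 fold change was 0.18 over the 149 tested members, 0.01 over the tested genes numbered up to 9400 and 0.01 over all tested genes. FPKM did not overlap between the strains for 63 of the 149 (42.3%), against 31.1% over all tested genes. The 63 include all 28 that rose and all 9 that fell. Calls and overlap rest on the same values, so this adds no support to the calls. The 112 tested members that were not called had log2 fold changes of -0.92 to 2.05, and 87 of them lay within 0.5 of 0.

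The 60 untested members comprised 8 with no count, 19 with fewer than 10 counts in all and 33 with 10 to 108 counts. Their summed counts were 714.66 in MuPOX06509 and 387.82 in Ku70. Scaled to library size, 38 of the 60 were higher in MuPOX06509 and 14 lower. These are values of genes that no test covered.

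At the lower end of the range the numbers that rose stopped just outside it. Of the 10 IDs from POX09616 to POX09625, 8 were tested and 6 rose, where 5.33% of all tested genes rose. Their median log2 fold change was 1.93. Of the 10 IDs from POX09626 to POX09635, 8 were tested and none was called, where 12.6% of all tested genes were called. The median there was 0.07. The last IDs outside were POX09623, which had 26.5, 22.2 and 12.8 FPKM in MuPOX06509 F, S and T, against 4.88, 4.90 and 3.19 FPKM in Ku70 F, S and T, and POX09624 and POX09625, with 30 and 1 counts in all. The first inside were POX09626, with 3.39, 3.76 and 2.86 FPKM in MuPOX06509 F, S and T, against 2.21, 2.16 and 2.47 FPKM in Ku70 F, S and T, and POX09627, whose strains overlapped. POX09628 had 6 counts in all, 3 in each strain.

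Along the numbers the called members were unevenly placed, in blocks that were set after the values were seen. From POX09626 to POX09675, 1 of 47 tested members rose and 2 fell. From POX09676 to POX09725, 16 of 36 rose and 1 fell. From POX09726 to POX09775, 4 of 40 rose and 1 fell, and from POX09776 on, 7 of 26 rose and 5 fell. As shares of the tested members, 2.13%, 44.4%, 10% and 26.9% of these blocks rose, where 5.33% of all tested genes did. The shares that fell were 4.26%, 2.78%, 2.5% and 19.2%, where 7.27% of all tested genes fell. The median log2 fold changes of these blocks were 0.03, 0.80, 0.11 and 0.37. The block with most rises had median levels of 7.47 FPKM in MuPOX06509 and 2.72 FPKM in Ku70 over all its 50 members, and the first block 27.7 FPKM in MuPOX06509 and 31.1 FPKM in Ku70.

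**Figure D3:**
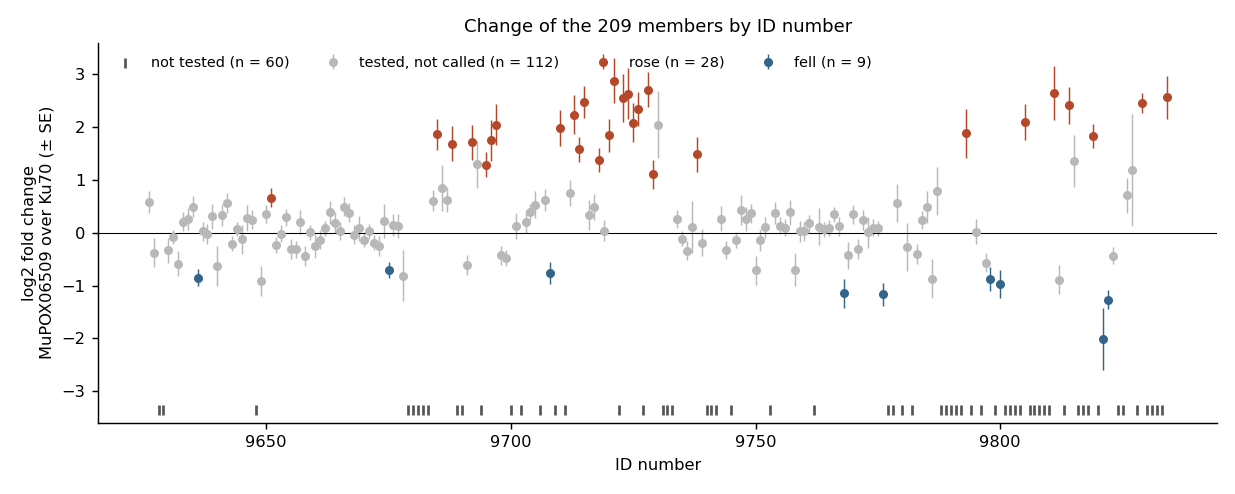
Log2 fold change, MuPOX06509 over Ku70, with its SE, against ID number for the 149 tested members; ticks at the bottom mark the 60 untested ones. Rises (red) are dense between POX09685 and POX09738 and again from POX09793, while the first 50 numbers hold 1 rise and 2 falls. Of all tested genes 5.33% rose and 7.27% fell.

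The longest run of consecutive numbers called in the same direction was of 4 genes, POX09723 to POX09726, all of which rose. POX09723 had 34, 27 and 14 counts in MuPOX06509 F, S and T, compared with 4, 5 and 4 counts in Ku70 F, S and T. POX09724 had 33, 23 and 23 counts in MuPOX06509 F, S and T, compared with 8, 1 and 4 counts in Ku70 F, S and T. Both had few counts, and the strains did not overlap in either. POX09723 lost its call in 1 of the 14 alternative fits.

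POX09725 had 21.6, 16.3 and 8.53 FPKM in MuPOX06509 F, S and T, against 4.84, 3.09 and 3.23 FPKM in Ku70 F, S and T. POX09726 had 29.5, 20.8 and 16.2 FPKM in MuPOX06509 F, S and T, against 6.12, 3.10 and 4.16 FPKM in Ku70 F, S and T. In both genes library F was the highest of its strain. The log2 fold changes of the 4 genes were 2.56 ± 0.46, 2.64 ± 0.48, 2.08 ± 0.37 and 2.34 ± 0.32 (SE) in the order of their numbers.

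POX09721 showed the largest rise of the members. It had 69, 46 and 28 counts in MuPOX06509 F, S and T, compared with 7, 8 and 5 counts in Ku70 F, S and T, or 8.79 ± 3.90 FPKM in MuPOX06509 and 1.2 ± 0.279 FPKM in Ku70 (SD, n = 3 each). The fold change was 7.35. The lowest MuPOX06509 library stood above the highest Ku70 library, as the rule for listing the genes of this paragraph required. POX09728 had 86, 60 and 57 counts in MuPOX06509 F, S and T, compared with 10, 14 and 8 counts in Ku70 F, S and T, a 6.55-fold rise. POX09715 had 72, 64 and 47 counts in MuPOX06509 F, S and T, compared with 14, 11 and 9 counts in Ku70 F, S and T, a 5.57-fold rise. For these genes the Ku70 level was near 1 FPKM, so each fold rests on few Ku70 reads. POX09811 rested on the fewest, with 21, 12 and 11 counts in MuPOX06509 F, S and T, compared with 2, 3 and 2 counts in Ku70 F, S and T. Its log2 fold change was 2.65 ± 0.51 (SE), and 2.18 without both F libraries, where it was not called.

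POX09829 rose at a higher level and with little spread among the MuPOX06509 libraries. It had 108, 101 and 106 FPKM in MuPOX06509 F, S and T, against 15.6, 18.9 and 24.2 FPKM in Ku70 F, S and T. The 3 MuPOX06509 libraries were close to each other. They lay above all Ku70 libraries, as the rule for listing required. The log2 fold change was 2.46 ± 0.19 (SE), the smallest error among the 10 largest rises of members with at least 5 FPKM in the higher strain. POX09819 and POX09718, named after their values were seen, were the other members that rose to a mean of at least 100 FPKM in MuPOX06509, at 154 and 108 FPKM there, against 44.4 and 42.7 FPKM in Ku70.

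The other members among the 10 largest rises with at least 5 FPKM in the higher strain were POX09814, POX09713 and POX09805. The rises of POX09723, POX09724 and POX09834 were larger than those of POX09713 and POX09805 but at lower levels. POX09814 had 34.5, 23.2 and 17.6 FPKM in MuPOX06509 F, S and T, against 7.26, 3.95 and 3.23 FPKM in Ku70 F, S and T. POX09713 had 18.6, 11.1 and 9.0 FPKM in MuPOX06509 F, S and T, against 4.11, 1.88 and 2.39 FPKM in Ku70 F, S and T. POX09805 had 12.7, 10.8 and 7.44 FPKM in MuPOX06509 F, S and T, against 3.59, 1.82 and 1.98 FPKM in Ku70 F, S and T. In each of them F was the highest library within both strains. Lack of overlap between the strains was part of the rule that chose them. Their log2 fold changes were 2.41 ± 0.35, 2.24 ± 0.36 and 2.09 ± 0.34 (SE).

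The last ID, POX09834, had fractional counts in all 6 libraries. It had 81.32, 47.05 and 37.35 counts in MuPOX06509 F, S and T, compared with 14.22, 5.97 and 9.18 counts in Ku70 F, S and T. The strains did not overlap, and the log2 fold change was 2.56 ± 0.41 (SE). Of the 32 members with fractional counts 20 were tested, 6 rose and 2 fell. Among the 129 tested members with whole counts in every library 22 rose and 7 fell. Of the genes numbered up to 9400, 22 of 360 tested fractional ones rose and 16 fell, and 339 of 7658 with whole counts rose and 579 fell.

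**Figure D4:**
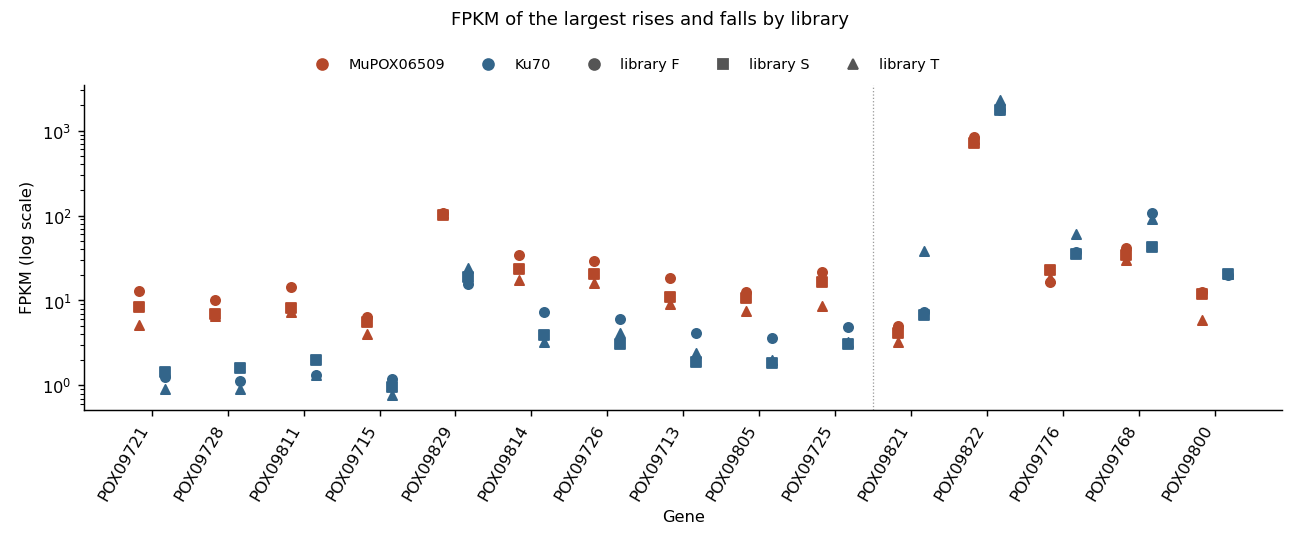
FPKM on a log scale in the 6 libraries for the 10 largest rises (left of the dotted line) and the 5 largest falls (right) among called members with at least 5 FPKM in the higher strain, MuPOX06509 in red and Ku70 in blue, with a symbol for each library letter. The 15 genes were listed only if the values of the strains did not overlap.

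The fall with the most counts behind it was of POX09822, which is also among the 5 most abundant members. It had 852, 707 and 792 FPKM in MuPOX06509 F, S and T, against 1773, 1728 and 2307 FPKM in Ku70 F, S and T. Each MuPOX06509 library was below each Ku70 library, as the rule for listing falls required, and the log2 fold change was -1.27 ± 0.18 (SE). With 36667 counts in MuPOX06509 and 92376 in Ku70, POX09822 made up most of the difference in the block from POX09776 on, which held 0.146% ± 0.00866 of the counts in MuPOX06509 and 0.267% ± 0.0436 in Ku70 (SD, n = 3 each).

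POX09821, its neighbour in number, was called lower with 1 library far from the others. It had 5.03, 4.12 and 3.26 FPKM in MuPOX06509 F, S and T, against 7.36, 6.75 and 38.1 FPKM in Ku70 F, S and T. Ku70 library T stood far above the rest. The log2 fold change was -2.01 ± 0.59 (SE) and -0.76 without Ku70 library T, where the gene was not called. It was also not called without any 1 of MuPOX06509 F, S and T, at -2.18, -1.998 and -1.86, and lost its call in 9 of the 14 alternative fits in all.

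POX09776 had 16.3, 22.8 and 18.6 FPKM in MuPOX06509 F, S and T, against 37.1, 35.5 and 60.9 FPKM in Ku70 F, S and T, with fractional counts in all 6 libraries. Here too the strains did not overlap, as the rule for listing required, and the log2 fold change was -1.17 ± 0.21 (SE). POX09768 had 41.2, 34.0 and 30.2 FPKM in MuPOX06509 F, S and T, against 108, 42.1 and 91.5 FPKM in Ku70 F, S and T. Ku70 library S lay close to MuPOX06509 in this gene. POX09800 had 12.7, 12.1 and 5.82 FPKM in MuPOX06509 F, S and T, against 20.1, 20.7 and 20.5 FPKM in Ku70 F, S and T, and there the MuPOX06509 libraries were the ones that varied. The log2 fold change was -1.15 ± 0.28 (SE) for POX09768 and -0.97 ± 0.27 (SE) for POX09800. POX09768 was no longer called without Ku70 F, Ku70 T or MuPOX06509 T, at -0.88, -1.07 and -1.05, nor POX09800 without Ku70 F, Ku70 S, Ku70 T or MuPOX06509 T, at -0.99, -0.92, -0.997 and -0.69. In all, POX09768 lost its call in 7 of the 14 alternative fits and POX09800 in 6 of the 14.

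The members that rose were ordered alike within MuPOX06509. Library F was the highest of the 3 in 23 of the 28 and library T the lowest in 24 of the 28. For the 361 genes numbered up to 9400 that rose, F was the highest in 121 (33.5%) and T the lowest in 142 (39.3%). The neighbouring IDs POX09401 to POX09625 had the order of the members: of their 55 rises F was the highest in 42 (76.4%) and T the lowest in 41 (74.5%). The median level of the 28 members was 14.5, 10.5 and 7.98 FPKM in MuPOX06509 F, S and T, against 3.85, 2.02 and 2.42 FPKM in Ku70 F, S and T.

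The difference F minus T in log2(CPM + 1) had a median of 0.68 in MuPOX06509 and 0.13 in Ku70 over the 28 members that rose, and of 0.68 in MuPOX06509 and 0.17 in Ku70 over the 55 rises from POX09401 to POX09625. Over the 112 tested members that were not called it was 0.22 in MuPOX06509 and -0.09 in Ku70, and over all tested genes numbered up to 9400 it was 0.01 in MuPOX06509 and -0.05 in Ku70. Members that rose thus also differed between libraries of 1 strain. The median FPKM of all members was highest in F within MuPOX06509, but in T within Ku70. Without MuPOX06509 library F, 27 of 150 tested members rose (18%) and 12 fell (8.0%), where 5.67% of the genes numbered up to 9400 rose and 7.29% fell. Without both F libraries 18 of 149 rose (12.1%) and 3 fell (2.01%), where 2.92% of the genes numbered up to 9400 rose and 2.94% fell, so both sets had fewer calls. The part of this order in the difference between the strains was not tested.

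**Figure D5:**
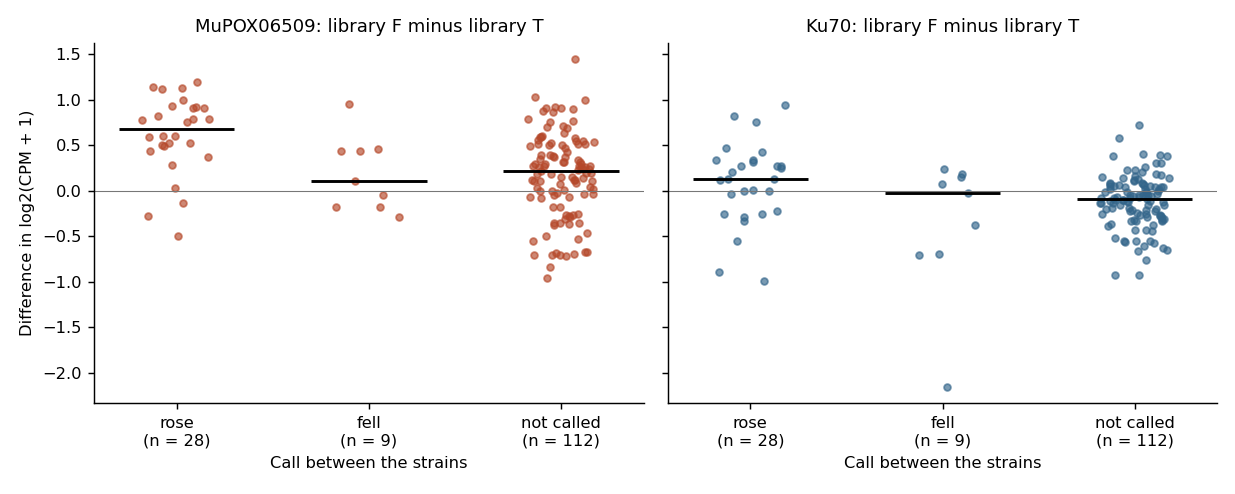
Difference in log2(CPM + 1) between library F and library T within MuPOX06509 (left) and within Ku70 (right) for the tested members that rose, fell or were not called; each point is a gene and each bar a median. In MuPOX06509 the members that rose have a median of 0.68 and those not called 0.22; in Ku70 the medians are 0.13 and -0.09.

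Rises made up a larger share of the short and of the low members, given here as counts without a test. Of 47 tested members with an implied length under 500 bases 16 rose and 1 fell, and of 101 members of at least 500 bases 12 rose and 8 fell. Among genes numbered up to 9400 the corresponding shares that rose were 2.58% of 967 short genes and 4.77% of 6945 longer ones. By level, 17 of 50 members with a mean under 10 FPKM over all 6 libraries rose, and 11 of 99 members at or above it. For genes numbered up to 9400 these shares were 6.56% of 2042 and 3.8% of 5976. Both divisions were set after the data were seen, and their part in the change was not tested.

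The members that varied most among the Ku70 libraries, of those with at least 20 counts there on average, were POX09827, POX09821 and POX09786. POX09827, the shortest tested member, had 318, 3222 and 598 counts in MuPOX06509 F, S and T, compared with 73, 1614 and 116 counts in Ku70 F, S and T. In this gene library S was the highest of either strain by several fold, and the strains overlapped. POX09786 had 32.8, 24.6 and 16.1 FPKM in MuPOX06509 F, S and T, against 50.3, 21.1 and 68.4 FPKM in Ku70 F, S and T. Neither POX09827 nor POX09786 was called, with log2 fold changes of 1.18 ± 1.06 (SE) and -0.87 ± 0.37 (SE). POX09827 turned with the library left out: it was 3.96, and called higher, without Ku70 S, 0.65 without Ku70 F, 0.68 without Ku70 T and -0.41 without MuPOX06509 S. POX09786 was called lower without Ku70 S, at -1.20, and stood at -0.52 without Ku70 T. The median SD of log2(CPM + 1) among replicate libraries was 0.226 in MuPOX06509 and 0.210 in Ku70 for the tested members, and 0.183 in MuPOX06509 and 0.205 in Ku70 for tested genes numbered up to 9400.

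The long members POX09701 and POX09635 and the short POX09669 overlapped between the strains and were not called. POX09701 had 1.77, 3.78 and 2.95 FPKM in MuPOX06509 F, S and T, against 2.35, 2.65 and 2.95 FPKM in Ku70 F, S and T. In it F was the lowest MuPOX06509 library, the reverse of the order in the members that rose. POX09635 had 4.89, 7.27 and 7.99 FPKM in MuPOX06509 F, S and T, against 4.29, 5.04 and 5.28 FPKM in Ku70 F, S and T, and again F was the lowest MuPOX06509 library. Its log2 fold change was 0.50 ± 0.19 (SE), and 0.68 without MuPOX06509 F, where it was called higher.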

How the data were processed

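RNA-seq of 6 libraries was analysed, 3 of MuPOX06509 and 3 of Ku70. Per the file headers, each deposited table lists, gene by gene, an expected count and an FPKM made by the authors. Per the submitters' processing notes, the tools were DESeq2, BWA 0.7.10-r789, Bowtie2 2.1.0 and RSEM 1.2.12, whose roles are not stated. Build, annotation and strand handling are not given in these sources, so overlapping genes cannot be separated. FPKM is relative to the other genes of a library.

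Expected counts were rounded and fitted over all genes in R 4.3.3 by the quasi-likelihood F test of edgeR 4.0.16, with strain as the only term, TMM scaling and a minimum count of 10 in filterByExpr. The SE is the log2 fold change divided by the square root of F, and can fall below counting error for genes with few counts. The fit was tested on simulated data with known changes. Alternatives were edgeR with other scaling, filter or a block, DESeq2 1.42.0, limma 3.58.1 on log2(FPKM + 1), left-out libraries and other ID limits. Lengths used values of at least 1 FPKM. The members, lists and ID limits were chosen with earlier results of these data known.

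Members were named by rule: the 5 most abundant; of called members without overlap and with at least 5 FPKM in the higher strain, the 10 largest rises and 5 largest falls; 3 IDs on either side of the limit; the 3 most variable in Ku70; the 3 most abundant fractional; the longest run of at least 4 calls; the last ID; and the 3 shortest and longest tested.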

Additional observations from a re-analysis of the deposited data

How the results depend on the processing

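Of the 28 members that rose, 18 were called higher in each of the 14 alternative fits, and of the 9 that fell, POX09776 and POX09822. Rises numbered 25 to 41 without 1 library, 18 without both F libraries, an alternative chosen after seeing the data with 2 libraries against 2, and 83 among ID numbers above 9400; other settings stayed within 1.5 times of 28. Falls were less stable: 14 with DESeq2, 4 with limma on log2(FPKM + 1) without a filter, 3 without both F libraries, and 4 without Ku70 library T to 17 without Ku70 library S. They numbered 5 without Ku70 library F, MuPOX06509 library S or MuPOX06509 library T. The genes numbered up to 9400 moved the same way in each of these fits, so the instability was not confined to the members. Of those genes 7.42% fell in the main fit, 8.95% with DESeq2, 4.34% with that limma fit and 2.94% without both F libraries. The members gave 6.04%, 7.91%, 1.99% and 2.01% in that order. With Ku70 T omitted 2.58% of members and 3.33% of those genes fell, and with Ku70 S omitted 10.9% and 13.6%. The cause was not tested. Same-letter libraries deviated together at r = 0.39 for F, 0.064 for S and 0.064 for T over all tested genes, so the letters were not taken as pairs. MuPOX06509 F correlated best with Ku70 F, but MuPOX06509 S with Ku70 T and MuPOX06509 T with Ku70 S. Over the 149 tested members the same-letter r was 0.469, 0.579 and 0.0162, and without POX09827 0.329, 0.163 and -0.038. With the letter as a replicate block 38 members rose (25.5%) and 17 fell (11.4%). In that fit 9.9% of the tested genes numbered up to 9400 rose and 13.1% fell, so both sets had more calls. The block newly called POX09827 higher (1.82), POX09786 lower (-0.79) and POX09635 higher (0.47). The median log2 fold change of tested members was 0.12 to 0.25 over all settings. The share of members with no count was 12.9% with a bar of 10 counts and 15.8% with a bar of 1 FPKM. The share with fractional counts was 11.5% for fractions over 0.1, 19.4% above number 9700 and 13.4% above 9400. Median FPKM in MuPOX06509 was 23.3 for tested members and 5.94 above 9700, and in Ku70 it was 19.6 for tested members, 2.97 above 9700 and 6.35 above 9400. Depth limits the folds of the low members: 8 of the 28 that rose had fewer than 30 counts over the Ku70 libraries.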
